A study of Mus musculus with 36 samples.

Results

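Trace amine-associated receptors (TAARs) are G protein-coupled receptors that most often detect volatile amines. The values of the 7 mouse Taar genes that belong to no recently multiplied subfamily (Taar1, Taar2, Taar3, Taar4, Taar5, Taar6 and Taar9) were examined, out of 24574 genes listed in all 3 tissues. They were chosen by name. The other 8 Taar genes listed belong to the Taar7 and Taar8 subfamilies and serve here only for comparison.

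RNA-seq was performed on the main olfactory epithelium (MOE), the vomeronasal organ (VNO) and the olfactory bulb (OB) of C57BL/6 mice at 6 months of age. In each tissue there were 4 groups of 3 libraries: females kept only with females (SF, sex-separated), males kept only with males (SM), and females (CF) and males (CM) that shared cages with the other sex (sex-combined). All mice lived 4 to a cage from weaning at 3 weeks onward, no group carried a genetic change or received an agent, and each of the 36 libraries was made from RNA pooled from several mice, so a replicate is a pool. According to the paper, sex-separated cages stood in rooms that held only mice of that sex. Litters were born in sex-combined cages, and the pups were killed within a day. Contact with the other sex, mating and births, and the room therefore cannot be told apart in the comparisons of housing. The values are FPKM (fragments scaled to transcript length and to the mapped fragments of a library) and so can be set side by side between genes. The number of fragments per library, as estimated from the FPKM and their limits, was 3016524 to 5902159 in MOE, 3373400 to 6779893 in VNO and 3592962 to 6437263 in OB. These sums are not the sequencing depth, since the paper lists more aligned read pairs for every library. Cnga2, a channel subunit of olfactory sensory neurons, had a mean of 213 FPKM in MOE and 2.18 in VNO. Trpc2, the vomeronasal transduction channel, had a mean of 43.0 FPKM in VNO and 0.938 in MOE, and Gad1, a marker of bulb interneurons, reached 179.6 FPKM in OB and 0.236 in MOE.

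As background, each olfactory sensory neuron expresses a single receptor gene, in most cases an odorant receptor (Olfr) gene and in a small population a Taar gene instead. Neurons that express Taar genes signal through the same cyclic nucleotide cascade as other olfactory neurons, lie mostly in the dorsal part of the epithelium and send their axons to a small set of dorsal glomeruli in the bulb. Taar1, the founding member, is a receptor for trace amines in the brain and other organs and is not known as an olfactory receptor. Among the olfactory members, Taar3 responds to isoamylamine, Taar4 to phenylethylamine, which is abundant in carnivore urine, and Taar5 to trimethylamine, which is abundant in the urine of adult male mice. Amine ligands have also been described for Taar9, and Taar6 is less well characterized.

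All 15 Taar genes listed lay within 189.129 kb of chromosome 10 (mm9), with no gene outside the family listed between them. From one end, Taar1 (NM_053205) was placed at chr10:23640212-23641210, Taar2 (NM_001007266) at chr10:23658378-23661389, Taar3 (NM_001008429) at chr10:23669364-23670395, Taar4 (NM_001008499) at chr10:23680300-23681343 and Taar5 (NM_001009574) at chr10:23690512-23691525, all on the plus strand. Taar6 (NM_001010828, chr10:23704415-23705452) and Taar9 (NM_001010831, chr10:23828294-23829340) are on the minus strand, with the whole Taar7 and Taar8 block between them. Taar2 has 2 coding exons, and the other 6 genes have a single coding exon each. The nearest listed gene before the cluster was Vnn1, at 15.1 kb, and the nearest after it was Stx7, at 39.8 kb. Vnn1, an enzyme that hydrolyses pantetheine, had a mean of 0.265 FPKM in MOE against 0.267 in VNO and 0.0662 in OB, and Stx7, a syntaxin of endosomes, averaged 30.6 FPKM in MOE against 25.5 in VNO and 31.5 in OB.

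**Figure D1:**
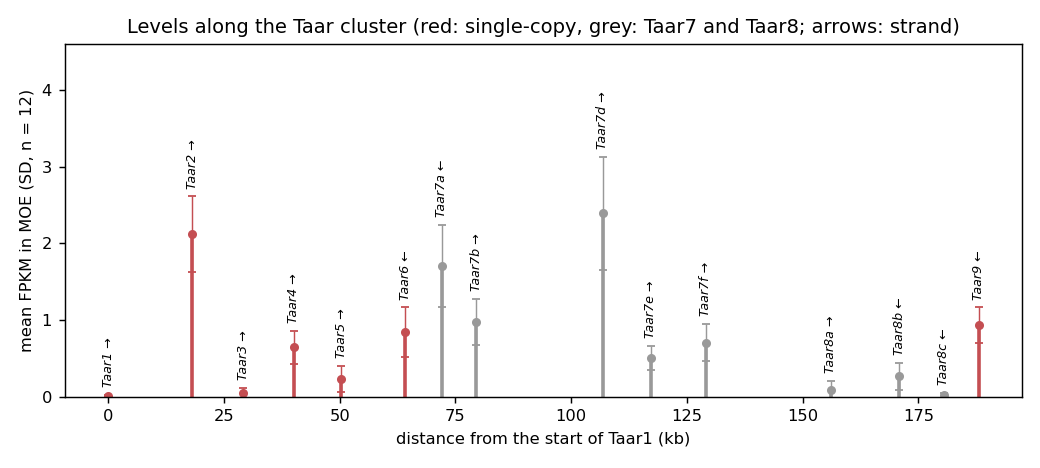
Mean FPKM in the 12 MOE libraries (error bars, SD) of the 15 Taar genes against the distance of each gene from the start of Taar1 in kb; red marks the single-copy genes, grey the Taar7 and Taar8 genes, and arrows the strand. Taar2 is the highest red point at 2.12 FPKM, and Taar1, at one end of the cluster, is near 0.

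The transcript sequences show how far the family has diverged and how many reads could match more than 1 member. The most conserved stretch of 50 bases over the 7 transcripts (GENCODE M21 models of GRCm38, which served only for sequence) is printed below, from positions 195 to 244 of the Taar1 transcript, 172 to 221 of Taar2 and Taar3, 178 to 227 of Taar4, 181 to 230 of Taar5, and 175 to 224 of Taar6 and Taar9. Capitals mark bases that differ from the most frequent base of a position, and where bases were tied for most frequent, 1 of them was taken and the others are in capitals.
Taar1: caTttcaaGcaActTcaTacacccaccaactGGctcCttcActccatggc
Taar2: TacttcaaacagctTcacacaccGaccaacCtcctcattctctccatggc
Taar3: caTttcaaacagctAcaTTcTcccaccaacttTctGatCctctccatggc
Taar4: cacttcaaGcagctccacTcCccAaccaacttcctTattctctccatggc
Taar5: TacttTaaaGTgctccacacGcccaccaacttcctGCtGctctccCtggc
Taar6: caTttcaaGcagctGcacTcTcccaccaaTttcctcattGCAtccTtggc
Taar9: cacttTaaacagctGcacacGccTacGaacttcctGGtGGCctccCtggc
Of the 50 positions, 26 hold the same base in all 7 transcripts, and any pair of members differs at 8 to 17 positions even in this stretch. Over whole transcripts, the identity of the 21 pairs ranged from 53.7% to 68.7%, the highest being Taar6 with Taar9.

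The libraries were read as pairs of 50 bases, so every window of 50 bases of each transcript was compared with all other Taar transcripts. In Taar1, Taar2, Taar3, Taar4, Taar5 and Taar9 no window lay within 2 mismatches of another Taar transcript. In Taar6, 1 of 989 windows was identical to Taar8a and 62 windows (6.27%) lay within 2 mismatches of another transcript. In the Taar7 and Taar8 genes, 29.5% to 72.5% of windows were identical to another transcript and 81.8% to 95.9% lay within 2 mismatches. The single identical window of Taar6 spans positions 385 to 434 of its transcript. It is shown because it is the only place where a whole read of a single-copy member would match another Taar gene without a mismatch.
Taar6 and Taar8a: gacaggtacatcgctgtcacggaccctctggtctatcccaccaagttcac
The longest run that Taar9 shared with another Taar transcript was 31 bases, with Taar7d, and the longest runs of the other 5 members were 15 to 22 bases.

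**Figure D2:**
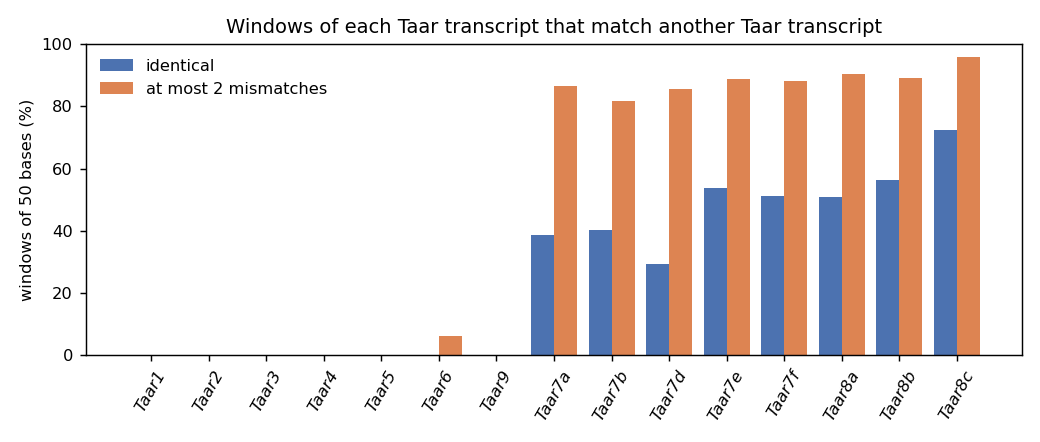
Share of the windows of 50 bases (%) of each Taar transcript that are identical to a window of another Taar transcript (blue) or within 2 mismatches of one (orange). Of the single-copy genes only Taar6 has a visible bar (6.27% within 2 mismatches), whereas every Taar7 and Taar8 gene is above 80% for the orange bars.

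In MOE the 7 genes fell into a clearly expressed set, Taar2, Taar9, Taar6 and Taar4, which had fragments in all 12 libraries, and a set at or near 0, Taar3 and Taar1, with Taar5 between them. Mean levels were 2.12 ± 0.492 FPKM for Taar2, 0.936 ± 0.230 for Taar9, 0.845 ± 0.322 for Taar6, 0.643 ± 0.214 for Taar4, 0.232 ± 0.173 for Taar5, 0.0459 ± 0.0719 for Taar3 and 0.00662 ± 0.0229 for Taar1 (SD, n = 12 each). The levels rest on few fragments, 15 to 35 per library for Taar2, 6 to 17 for Taar9, 5 to 16 for Taar6, 3 to 15 for Taar4 and 0 to 7 for Taar5. In bulk tissue, fewer neurons that express a gene and less RNA per neuron cannot be told apart.

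Taar2 had the highest level of the 7. Its FPKM was 3.00, 1.41 and 2.21 in SF libraries 1 to 3, 2.12, 2.49 and 1.89 in SM, 2.74, 1.80 and 2.08 in CF, and 2.41, 1.95 and 1.36 in CM. The lowest values were in CM library 3 and SF library 2, the highest in SF library 1, and the 4 groups overlapped throughout. Taar2 alone made up 38.5% to 53.7% of the summed FPKM of the 7 genes.

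Taar9 was second by mean. It had 1.08, 0.837 and 1.36 FPKM in SF libraries 1 to 3, 0.834, 1.21 and 1.16 in SM, 0.549, 0.765 and 0.866 in CF, and 0.851, 0.981 and 0.733 in CM. The CF libraries were on the low side and CF library 1 was the lowest of all 12, but CF overlapped with SF and with CM.

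Taar6 was the only member with groups that did not overlap, in 2 of the 4 pairwise comparisons of sex or housing: SF lay below SM, as for 6.54% of the genes tested, and CF above SF, as for 2.15%. It had 0.531, 0.538 and 0.392 FPKM in SF libraries 1 to 3, 0.754, 0.724 and 0.797 in SM, 1.46, 1.17 and 0.856 in CF, and 1.22, 1.06 and 0.637 in CM. The 3 lowest values were all in SF, and the highest were in CF library 1 and CM library 1.

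Taar4, the phenylethylamine receptor, had 0.766, 0.415 and 1.09 FPKM in SF libraries 1 to 3, 0.586, 0.624 and 0.703 in SM, 0.263, 0.767 and 0.702 in CF, and 0.487, 0.796 and 0.515 in CM. Its lowest value, in CF library 1, stood for 3 fragments, and the groups overlapped.

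Taar5, the trimethylamine receptor, was lower and more scattered. It had 0.205, 0.0811 and 0.260 FPKM in SF libraries 1 to 3, 0.535, 0.491 and 0.0732 in SM, 0.376, 0.0915 and 0.283 in CF, and 0.0935, 0.292 and 0 in CM. The highest values were in SM libraries 1 and 2, while SM library 3 was among the lowest, and every group overlapped with every other. Over the 3 libraries of a group there were 6 fragments in SF, 14 in SM, 8 in CF and 4 in CM.

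Taar3, the isoamylamine receptor, was above 0 in 4 of 12 MOE libraries, with 0.0714 FPKM in SF library 2, 0.150 in SM library 1, and 0.151 and 0.178 in CM libraries 1 and 3. These values stand for 1 or 2 fragments each, 7 in all, and none of the 3 CF libraries had a fragment. Taar1 was above 0 only in CF library 2, with 0.0794 FPKM from 1 fragment. Both genes were at or near the limit of what this depth can detect.

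**Figure D3:**
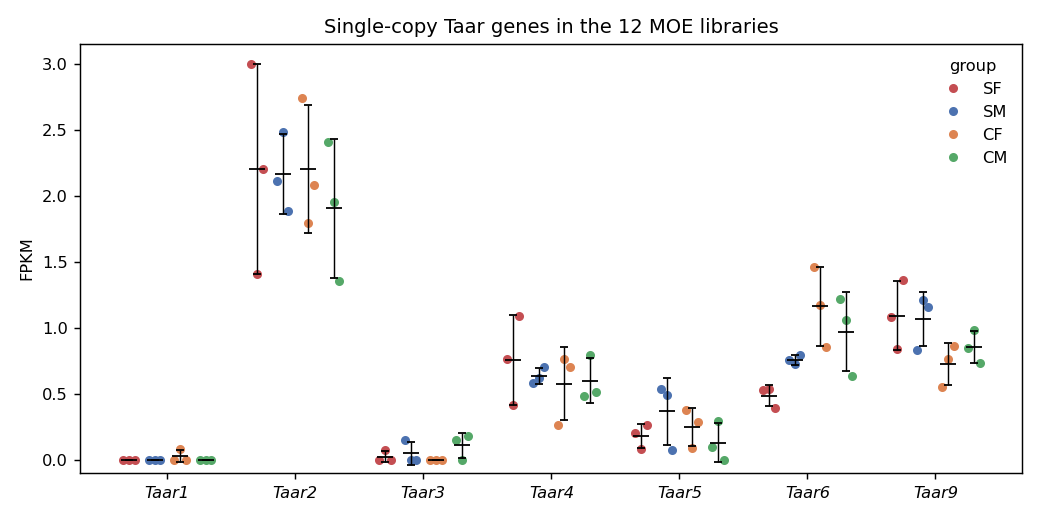
FPKM of the 7 single-copy Taar genes in the 12 MOE libraries, with 1 point per library, colours for the 4 groups, a horizontal bar for the group mean and error bars for the SD (n = 3). Taar2 lies above the other genes, the 3 SF points of Taar6 lie below its SM and CF points, and Taar1 and Taar3 lie at or near 0.

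In the order of levels, Taar2 was higher than Taar9 in 12 of 12 MOE libraries, by 1.19 ± 0.504 FPKM (mean and SD of the difference within a library). Taar9 was higher than Taar6 in 8 of 12 libraries (0.0908 ± 0.501) and Taar6 higher than Taar4 in 10 of 12 (0.202 ± 0.463). Neither mean difference exceeded its SD between libraries. Taar9 was higher than Taar4, which is not its neighbour, in 11 of 12 libraries (0.293 ± 0.153). Taar4 was higher than Taar5 in 11 of 12 libraries (0.411 ± 0.274). Taar5 was higher than Taar3 in 10 of 12 (0.186 ± 0.200), from 32 and 7 fragments in all. Taar3 was higher than Taar1 in 4 libraries and lower in 1 (0.0392 ± 0.0797). Both mean differences were smaller than their SD between libraries, which is not the error of a mean. The ranges over 12 libraries of all 6 pairs of neighbours overlapped.

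Set against the 1105 Olfr genes listed in MOE, whose median was 0.647 FPKM, Taar2 was above 84.9% of them, Taar9 above 62.3%, Taar6 above 58.6% and Taar4 above 49.7%. Taar5 was above 26.6%, Taar3 above 11.1% and Taar1 above 3.35%. Thus Taar4 lay at the level of a typical single odorant receptor gene, and the 3 members above it were higher.

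The SD within groups was 1.35 times the SD expected from counting for Taar2, 1.07 times for Taar4, 1.17 times for Taar5, 0.821 times for Taar6 and 0.696 times for Taar9. Taar6 and Taar9 thus spread less than counting alone would give. Their intervals below may therefore be too narrow and their p-values too low, in all fits, and no correction was made for this.

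The summed FPKM of the 7 genes was 3.35 to 5.59 with a median of 5.03, and made up 38.3% to 49.3% of the summed FPKM of all 15 Taar genes. SF library 2 and CM library 3 stood apart, with sums of 3.35 and 3.42 FPKM against 4.62 to 5.59 in the other 10. The same 2 libraries had the lowest summed level of 7 mature olfactory neuron markers, 1314 and 1169 FPKM against 1614 to 1982. They also had the lowest summed level of all Olfr genes, 1116 and 950.1 FPKM against 1358 to 1768, and of the dorsal zone markers Nqo1 and Acsm4, 157 and 119.7 FPKM against 166 to 227.5. As a share of the summed Olfr level, the 7 genes were at 0.293% to 0.389% with a median of 0.321%, and SF library 2 (0.300%) and CM library 3 (0.360%) lay within that range. CM library 3 also had the lowest sum of estimated fragments in MOE, 3016524, while SF library 2 had 5852927. By the paper's alignment summary, CM library 3 did not have the fewest aligned pairs in MOE, but it had the lowest share of concordant pairs there. SF library 2 had the lowest RNA integrity number of the MOE samples in the paper's sample list, and the longest mean insert. Whether these traits bear on the levels was not tested.

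Whether sex or housing changed the receptors was tested with limma in 1 fit of the 12 MOE libraries, for the 4 members with a mean of at least 0.5 FPKM (Taar2, Taar4, Taar6 and Taar9). Taar1, Taar3 and Taar5 did not pass this filter and were not tested. Changes are differences in mean log2(FPKM + 0.5), which understate the change of low genes, and p-values were adjusted over all 13757 genes tested. None of the 4 members was called at an adjusted p under 0.05 in any of the 5 comparisons. Few of all genes tested passed either, with 0.102% for SF against SM, 0.0436% for CF against CM, 0.0363% for the interaction of sex and housing, 0.0509% for CF against SF and 0.0654% for CM against SM. At an unadjusted p under 0.05, Taar6 passed in CF against SF and no member passed in the other 4 comparisons. The share of all genes at that level was 2.04% in CF against SF, 4.16% in SF against SM, 1.75% in CF against CM, 4.59% for the interaction and 6.94% in CM against SM.

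Taar6 averaged 1.16 FPKM in CF and 0.487 in SF, a ratio of 2.39, from 40 and 18 fragments. The log2 difference was 0.74 (SE 0.191, 95% interval 0.34 to 1.14, adjusted p = 0.667 by limma). The 3 CF libraries were all above the 3 SF libraries, as was the case for 2.15% of all genes tested. With 1 library left out in turn the difference ranged from 0.61 to 0.88, and its lowest adjusted p was 0.203. With weights for library quality the adjusted p was 0.0180 at a difference of 0.68, in a fit that called 2225 genes in this comparison instead of 7. With the mature neuron markers as a covariate the difference was 0.72, and without SF library 2 it was 0.78. Over all settings the adjusted p ranged from 0.0180 to 1.

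Between the sexes, Taar6 averaged 0.487 FPKM in SF and 0.759 in SM, with a log2 difference of -0.35 (SE 0.191, 95% interval -0.76 to 0.05, adjusted p = 1 by limma). All 3 SF libraries were below all 3 SM libraries, as in 6.54% of all genes. In the sex-combined mice the averages were 1.16 in CF and 0.972 in CM, with a difference of 0.18 (95% interval -0.22 to 0.58) and groups that overlapped. The test of the difference between these contrasts gave -0.54 (SE 0.270, 95% interval -1.11 to 0.03, adjusted p = 0.999 by limma). Between CM and SM the difference was 0.20 (95% interval -0.20 to 0.61), or 0.38 without CM library 3, and without that library CF minus CM was 0.0062.

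For Taar2, the member with the most fragments, the log2 differences were -0.01 for SF minus SM (95% interval -0.49 to 0.46), 0.18 for CF minus CM (-0.29 to 0.65), 0.03 for CF minus SF (-0.44 to 0.50) and -0.16 for CM minus SM (-0.64 to 0.31). Each interval spans 0, and changes up to its bounds are not excluded. Without SF library 2, which had the low neuron markers, SF minus SM was 0.21, and without CM library 3 CM minus SM was 0.0102 and CF minus CM 0.0043.

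Taar9 differed by -0.37 between CF and SF (SE 0.182, 95% interval -0.76 to 0.01, adjusted p = 1 by limma). Its averages were 0.727 FPKM in CF and 1.09 in SF, from 25 and 40 fragments. With library weights the difference was -0.40 with an adjusted p of 0.0471 by limma, and the adjusted p ranged from 0.0471 to 1 over all settings. Its differences were 0.02 for SF minus SM (95% interval -0.37 to 0.40), -0.15 for CF minus CM (-0.53 to 0.24) and -0.21 for CM minus SM (-0.59 to 0.18). Taar6 and Taar9 thus had estimates of opposite sign between CF and SF.

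Taar4 differed by 0.11 for SF minus SM (95% interval -0.37 to 0.59), by -0.05 for CF minus CM (-0.54 to 0.43), by -0.22 for CF minus SF (-0.71 to 0.26) and by -0.06 for CM minus SM (-0.54 to 0.43). The medians of all genes tested were themselves off 0, at -0.02 for SF minus SM, 0.10 for CF minus CM, -0.06 for CF minus SF and -0.17 for CM minus SM.

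**Figure D4:**
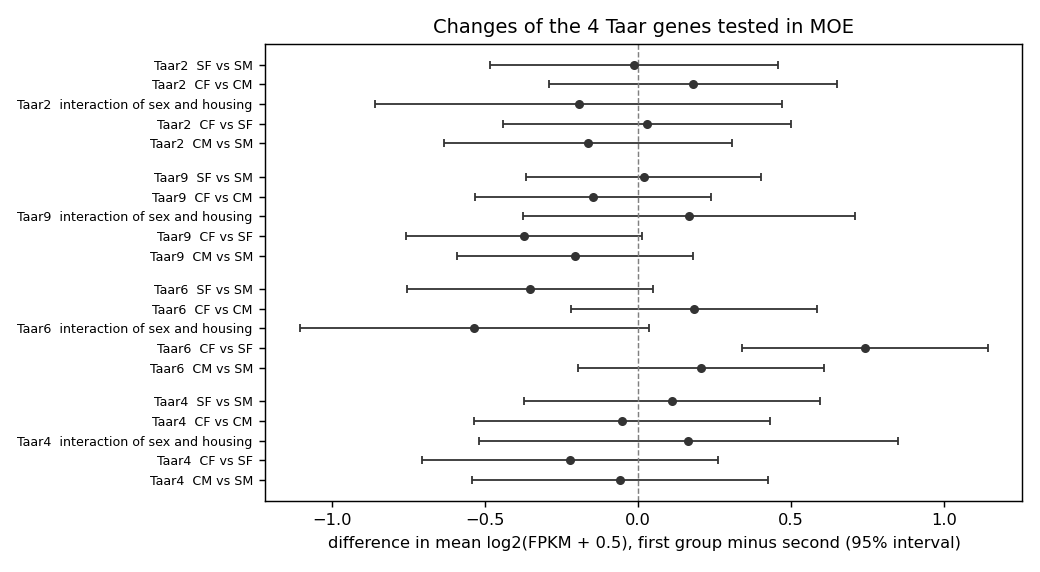
Difference in mean log2(FPKM + 0.5) between the first and the second group (point) with its 95% interval (bar) for the 4 Taar genes tested in MOE and the 5 comparisons. Only the interval of Taar6 between CF and SF (0.34 to 1.14) lies off 0, and it does not pass the adjustment over all genes (adjusted p = 0.667).

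The Taar7 and Taar8 genes, whose values are uncertain because reads can match several of them, gave a like picture. Taar7d was the highest of them at 2.39 ± 0.737 FPKM in MOE, followed by Taar7a at 1.70 ± 0.537, Taar7b at 0.975 ± 0.302 and Taar7f at 0.704 ± 0.244 (SD, n = 12). Of these 8 genes 5 were tested, none was called in any of the 5 comparisons, and 1 had an unadjusted p under 0.05, Taar7f between CM and SM (log2 difference -0.47, adjusted p = 0.699 by limma). The SF values of Taar8b (at most 0.159 FPKM) lay below all SM (at least 0.302) and all CF values (at least 0.172). Its highest SF and lowest CF values stand for 2 fragments each. Taar8b was too low to be tested, with 3 fragments in SF, 17 in SM and 11 in CF. The shares of genes without overlap given above cover only tested genes, so none stands beside these values. In Taar8a these groups overlapped, with 0 to 0.163 FPKM in SF, 0 to 0.231 in SM and 0 to 0.0879 in CF. In Taar7f the highest CF value (0.630 FPKM) and the lowest SF value (0.631) differed by less than 1 fragment (0.0684 FPKM in SF library 2). No direction is read from them.

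The genes through which these receptors act showed no called change in MOE in any of the 5 comparisons. This held for 0 of 12 genes of olfactory transduction, among them Gng13 (629 FPKM), Cnga2 and Adcy3 (110.3 FPKM), and for 0 of 13 genes of receptor choice and trafficking, such as the chaperones Rtp1 (63.0 FPKM) and Rtp2 (88.3 FPKM) and the transcription factor Atf5 (75.3 FPKM). Atf5 had an unadjusted p under 0.05 between SF and SM (log2 difference -0.74, adjusted p = 1 by limma) and for the interaction (-0.86, adjusted p = 0.999 by limma). No other gene of these lists had an unadjusted p under 0.05. No marker gene was called or had an unadjusted p under 0.05 either, with 7 of 7 mature neuron markers, 3 of 4 immature neuron markers, 2 of 2 dorsal and 2 of 2 ventral zone markers, 4 of 4 sustentacular markers, 1 of 4 vomeronasal and 2 of 6 bulb neuron markers tested. The median log2 difference of the mature neuron markers was -0.24 for SF minus SM, 0.16 for CF minus CM, 0.03 for CF minus SF and -0.26 for CM minus SM.

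The receptors' ligands are amines, and 8 of 10 genes of amine metabolism were tested in MOE with none called by limma and none at an unadjusted p under 0.05. Fmo2 had a mean of 22.7 FPKM in MOE against 7.14 in VNO and 0.505 in OB, and Maob, a monoamine oxidase, 14.9, 2.70 and 3.00.

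Across the tissues, the olfactory members were found in MOE, in traces in VNO and hardly at all in OB. Summed over the 12 libraries of a tissue, Taar2 had 314 fragments in MOE against 11 in VNO and 1 in OB. Taar9 had 136 fragments in MOE and none in VNO or OB, Taar6 had 122, 3 and 1, Taar4 had 102, 5 and 0, Taar5 had 32, 3 and 0, and Taar3 had 7, 0 and 0. Taar1 had 1 fragment in MOE, 1 in VNO (0.0650 FPKM in SF library 3) and none in OB. The summed FPKM of the 7 genes was 3.35 to 5.59 in MOE, against 0.0595 to 0.272 in VNO and 0 to 0.0710 in OB, ranges that do not overlap between MOE and the others.

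In VNO, Taar2 was above 0 in 8 of 12 libraries, 2 in each group, with at most 0.178 FPKM, in CM library 1, and 0.174 in SF library 1. Taar4 was above 0 in 4 VNO libraries, up to 0.133 FPKM in CF library 3, Taar6 in 3, up to 0.0770 in CF library 1, and Taar5 in 2, up to 0.131 in CM library 2. All of these values stand for 1 to 3 fragments per library. In OB the only values above 0 were Taar2 in SF library 1 (0.0576 FPKM) and Taar6 in CF library 2 (0.0710 FPKM), with 1 fragment each. No member reached the mean of 0.5 FPKM needed for a test of sex or housing in VNO or OB.

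The ratios of MOE to the other tissues were computed from the pooled fragments per length and depth, with 95% intervals that cover counting error only. Taar2 was 32.1-fold higher in MOE than in VNO (17.7 to 64.9), Taar4 22.9-fold (9.51 to 72.1), Taar6 45.7-fold (15.3 to 225) and Taar5 11.98-fold (3.75 to 61.2). Where no fragment was found, the lower 95% limit of the same interval is given, with the ratio to a floor of 3 fragments over the 12 libraries in parentheses. In MOE, Taar9 was at least 40.9-fold (50.9) and Taar3 at least 1.62-fold (2.62) higher than in VNO. Compared with OB, the ratio was 352 for Taar2 (62.8 to 13961) and 137 for Taar6 (24.1 to 5451), each with 1 fragment in OB. In MOE, Taar4 was at least 30.5-fold (38.2), Taar5 at least 9.18-fold (11.97), Taar9 at least 40.8-fold (50.9) and Taar3 at least 1.62-fold (2.62) higher than in OB. For Taar1 the ratio of MOE to VNO was 1.12 (0.0143 to 88.2), which shows nothing about its direction.

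In the limma fit of all 36 libraries, Taar2, Taar4, Taar6 and Taar9 passed the filter of a mean of 0.1 FPKM only through their MOE values, and their results are therefore a description. The paper states that all tissues were taken from each mouse, whereas this fit treats the 36 libraries as independent. An alternative fit, the replicate block, joined libraries of the same group and number across tissues. Whether pools of the same number held the same mice is not stated. The log2 differences between MOE and VNO were 2.198 for Taar2, 1.10 for Taar4, 1.34 for Taar6 and 1.51 for Taar9, and those between MOE and OB 2.35, 1.17, 1.37 and 1.51, all with smaller values than the ratios above because of the pseudocount of 0.5. In this fit 45.9% of all genes were called higher in MOE than in VNO and 46.6% higher in MOE than in OB. All 12 MOE libraries were above all 12 VNO libraries for these 4 members, as for 16.2% of all genes, and above all 12 OB libraries, as for 25.4%. Between VNO and OB, where no member passed the filter on its own, the difference of Taar2 was 0.16, from 11 and 1 fragments.

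**Figure D5:**
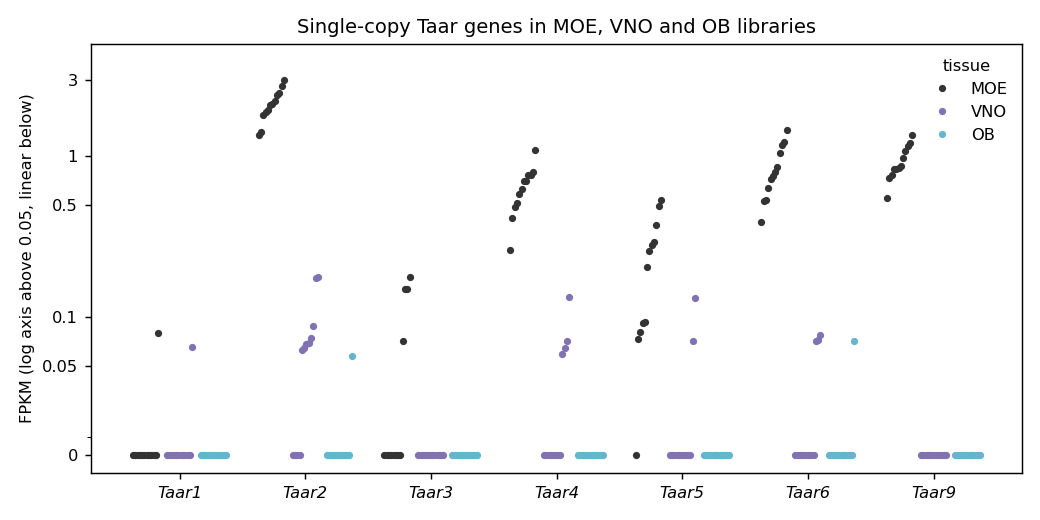
FPKM of the 7 single-copy Taar genes in the 12 libraries each of MOE (black), VNO (purple) and OB (blue), sorted by value within a tissue, on an axis that is logarithmic above 0.05 and linear below. Taar2, Taar4, Taar6 and Taar9 have all 12 MOE points above every VNO and OB point, and in VNO Taar2 is above 0 in 8 of 12 libraries.

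The VNO levels were set beside those of MOE neuron genes in the same libraries. As a percentage of the mean in MOE, the VNO mean was 3.07% for Taar2, 4.26% for Taar4, 2.17% for Taar6, 7.28% for Taar5 and 0% for Taar9. It was 1.02% for Cnga2, 10.3% for Omp, which vomeronasal neurons also express, and 2.08% for the summed Olfr genes. The part of MOE tissue or RNA in the VNO values of the Taar genes was not tested.

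To describe which genes varied with each receptor between libraries, Pearson's r was computed over the 12 MOE libraries after subtracting group means, over 13748 other genes. Taar2 was most like Sik2 (r = 0.966) and Fndc10 (0.953), Taar4 like Gm38426 (0.964) and Olfr273 (0.897), Taar6 like Fra10ac1 (0.971) and Fam166c (0.945), and Taar9 like Rab7 (0.942) and Zfp36l2 (0.926). These are the highest of many values over few libraries, whose depth and neuron markers the points share, and 63 to 270 genes reached an r of 0.8 for each member. Among the members themselves, r was 0.848 for Taar4 with Taar9 and 0.0320 for Taar2 with Taar4. Taar6 had an r of -0.410 with Taar4 and -0.272 with Taar9. The SD within groups of Taar4 and Taar9 was 1.07 and 0.696 times that expected from counting. Their r therefore does not show shared variation beyond counting error. With the mean of the mature neuron markers r was 0.665 for Taar2, 0.634 for Taar9, 0.593 for Taar4 and 0.422 for Taar6.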

How the data were processed

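The authors merged 2 lanes per library, aligned the read pairs to mm9 with TopHat2 (2.1.0) and computed FPKM with Cufflinks (2.2.1.0; versions and build from the submitters' processing notes), and the deposited FPKM values per RefSeq transcript and locus, with their 95% limits, are the unit used here. How reads that match several genes were counted, and whether strand was used, is not given in the sources used here. The labels give 2 mice per pool, and the paper gives another number.

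Entries were assigned to symbols by accession (99.7% of entries) and summed by gene; each Taar gene had 1 entry. Fragments were estimated as (FPKM/SE) squared with the SE from the 95% limits, and 108 of 108 values of Taar genes with up to 9 fragments were within 0.05 of a whole number. Intervals and the floor of 3 fragments cover counting error only, since the reads carry no molecular identifiers and need not be separate molecules.

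Group means were fitted in R 4.3.3 by limma 3.58.1 (eBayes with trend, two-sided) on log2(FPKM + 0.5), in MOE for genes with a mean of at least 0.5 FPKM and between tissues for genes with a mean of at least 0.1 FPKM over 36 libraries, with Benjamini-Hochberg adjustment over all genes tested. The study's own Cuffdiff test needs alignments and was not used. Data were simulated from the gene means and within-group SDs of the 12 MOE libraries (13757 genes), with 200 random genes changed between SF and SM. In these data, 68.5% of genes with a log2 change of 1 and 99.5% with a log2 change of 2 were recovered, with 4 and 12 false calls. The simulated noise was independent between genes and libraries, and recovery was not computed for genes as low as the Taar genes. Library weights, the marker covariate and fits of only the libraries compared were used in MOE alone. Ratios between tissues used pooled fragments and an exact conditional interval, an addition made after the data were seen. Transcripts were aligned with MAFFT 7.526 and Biopython 1.88, and Python 3.11.15 with pandas 2.3.3 and scipy 1.17.1 did the rest.

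The members, the gene lists and the tests were chosen with earlier results of these data known. The genes named are all 7 members, the genes past the threshold and up to 4 of the highest genes of each list, the 2 genes most like each tested member, and the nearest gene on each side of the cluster. The genes with an unadjusted p under 0.05, Rtp1 and Maob, and the tissue markers were named after their values were seen. The alternatives were pseudocounts of 0.1 and 1, no filter, 2 rescalings, library weights, a replicate block, only the 6 libraries compared, the mature neuron markers as a covariate, and each library left out.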

Additional observations from a re-analysis of the deposited data

How the results depend on the processing

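No member was called in MOE under any alternative, except that library weights called 2 between CF and SF (Taar6 and Taar9). The signs of small estimates of uncalled genes were not stable. For Taar2 the difference between SF and SM became 0.00048 with upper quartile scaling, 0.043 with quantile normalization, 0.34 with library weights and 0.13 with the mature neuron markers as a covariate. With library weights and with this covariate it became 0.29 and 0.078 for the interaction and -0.27 and -0.0093 between CF and SF. Between CM and SM, Taar2 became 0.0078 with quantile normalization, 0.012 with library weights and 0.068 with the covariate, and Taar4 became 0.052 with upper quartile scaling, 0.064 with quantile normalization and 0.15 with the covariate. Leaving out 1 library in turn gave ranges for Taar2 of -0.22 to 0.21 (SF and SM), 0.0043 to 0.33 (CF and CM), -0.40 to 0.035 (interaction), -0.20 to 0.24 (CF and SF) and -0.31 to 0.0102 (CM and SM). For Taar4 they were -0.079 to 0.32 (SF and SM), -0.19 to 0.18 (CF and CM), -0.068 to 0.37 (interaction), -0.43 to 0.0092 (CF and SF) and -0.18 to 0.0137 (CM and SM), and for Taar9 -0.10 to 0.14 (SF and SM). The cause of these changes was not tested. Between VNO and OB, 1 member (Taar2) instead of 0 passed the threshold with a pseudocount of 0.1 (difference 0.58), upper quartile scaling (0.18) and the replicate block (0.16), but it entered that fit only through MOE, so these values are a description and support no difference. Between tissues, the alternatives run were the pseudocounts, no filter, the 2 rescalings, the replicate block and all libraries of a replicate number left out. The 4 members were higher in MOE under each of them, a direction that their entry through MOE fixes. Counts of all genes called moved with library weights from 14 to 1813 (SF and SM), 5 to 2420 (interaction), 7 to 2225 (CF and SF), 9 to 52 (CM and SM) and 6 to 12 (CF and CM).

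Between MOE libraries with the same replicate number, r of deviations was -0.0666 to 0.236, the highest in replicate 2 of CF and CM. The replicate block left 0 members called in each MOE comparison. Between tissues, r for the same group and number ranged from -0.307 (VNO and OB, CM replicate 3) to 0.228 (VNO and OB, SM replicate 1). For MOE and VNO in SF it was 0.201, 0.121 and 0.0608. The order of levels had no alternative value, since each Taar gene had 1 entry, and no member could be tested in VNO or OB alone. The tested members had 3 to 35 fragments per library, which limits the changes that can be detected.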
